A study of Mus musculus with 12 samples.

Results

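Hepatic stellate cells and fibroblasts make most of the connective tissue of the liver, and 10 genes that mark these cells or form their matrix were followed here in the liver of Maf1 KO and wild-type mice. The genes were Col1a1, Col1a2, Col3a1, Dcn, Acta2, Des, Lrat, Reln, Ecm1 and Hgf. They were chosen by name as markers or products of these cells, and all 10 were found among the 11587 genes of the deposited table. The experiment was ribosome profiling, in which a nuclease digests mRNA that is not shielded by a ribosome, and the protected fragments (footprints) are sequenced, as is a total RNA library of the same lysate. It asked whether translation differs in mice without MAF1, which represses RNA polymerase III. The groups were footprints of 3 Maf1 KO mice (KO1, KO2 and KO4), footprints of 3 wild-type mice (WT1, WT2 and WT3), and total RNA of the same KO and wild-type mice, 12 libraries in all. All mice were C57BL/6. By the labels the mice were refed and 12 to 14 weeks old, the extraction protocol gives 12 weeks and killing at 9 PM, and the study's methods give feeding ad libitum. The study writes the genotype as Maf1-/- and names no cell type to which the deletion was limited. Each library came from a lysate of whole liver, so that fewer cells of a type and less RNA per cell cannot be told apart. Replicates were separate mice.

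In healthy liver, stellate cells lie between hepatocytes and the sinusoidal endothelium, store vitamin A as retinyl esters made by LRAT, and secrete signals such as the hepatocyte growth factor HGF. After injury they can become myofibroblasts, which express smooth muscle actin (Acta2) and deposit fibrillar collagen, the main protein of scar tissue. COL1A1 and COL1A2 form the triple helix of type I collagen, COL3A1 forms type III collagen, and decorin (Dcn) is a proteoglycan that binds collagen fibrils. Desmin (Des) is an intermediate filament protein, reelin (Reln) is a secreted glycoprotein best known from neuronal migration and used as a stellate cell marker in liver, and ECM1 is a secreted matrix protein.

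The fibrillar collagen coding sequences are set apart by the triplet Gly-X-Y, which repeats without a break along the helix. The repeat ran for 338 triplets from codon 168 in Col1a1, for 339 from codon 97 in Col1a2 and for 344 from codon 164 in Col3a1. The first 30 codons of each run, read from GENCODE vM1 transcripts of the NCBIM37 (mm9) assembly, are shown with the glycine codon that opens each triplet in capitals, since their likeness bears on whether a short footprint can be placed on one collagen.
Col1a1: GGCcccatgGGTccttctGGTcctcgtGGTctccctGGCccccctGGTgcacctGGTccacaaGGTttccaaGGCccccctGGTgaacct
Col1a2: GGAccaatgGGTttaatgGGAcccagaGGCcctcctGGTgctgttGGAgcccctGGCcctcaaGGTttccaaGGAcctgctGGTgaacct
Col3a1: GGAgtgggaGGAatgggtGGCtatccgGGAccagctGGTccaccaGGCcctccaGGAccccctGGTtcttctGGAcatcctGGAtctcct
Windows of 28 bases, about the size of a footprint, were compared with all other coding sequences. Of Col1a1 windows 0.14% matched another gene with at most 1 mismatch, of Col1a2 windows 0.27% and of Col3a1 windows 0.05%. The repeat therefore left nearly all collagen windows unique. Acta2 was different, since 3.16% of its windows (35 of 1107) matched another gene exactly and 16.98% (188 of 1107) with at most 1 mismatch, led by Actb with 7.59% and Actg1 with 6.59%. With at most 1 mismatch the share was 4.41% for Des, 0.19% for Dcn and 0 for Lrat, Reln, Ecm1 and Hgf.

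The genes lie on 7 chromosomes of NCBIM37. Col1a1 is at chr11:94797538-94814356, Col1a2 at chr6:4454814-4491543 and Col3a1 at chr1:45368383-45406551, all on the plus strand. Dcn is at chr10:96942245-96980777, Des at chr1:75356904-75365154 and Hgf at chr5:16059368-16125257, on the plus strand. On the minus strand are Acta2 at chr19:34315580-34329826, Lrat at chr3:82696501-82707895, Reln at chr5:21390272-21850523 and Ecm1 at chr3:95538070-95543492. Tags were counted on coding sequence, which is 4362 bases long in Col1a1, 10386 in Reln and 696 in Lrat.

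The deposited values are log2 normalized tag counts, called scores here, and the number of reads behind a score is unknown, so no counting interval is given. Medians over genes were 8.75 to 9.34 in KO and 8.83 to 9.04 in wild-type total RNA, and 7.17 to 7.57 in KO and 7.37 to 8.02 in wild-type footprints. KO1 had the highest total RNA median and the lowest footprint median, and WT3 had the highest footprint median. Results are therefore given on the deposited scale and also with each library centred on its median gene. All 12 hepatocyte markers of the list were measured, with a summed centred total RNA score of 12.63 to 13.07 in KO and 12.29 to 13.05 in wild-type liver. Of 24 other stellate cell genes, 21 were measured.

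Compared per kilobase of coding sequence, the 10 genes spanned a wide range of mRNA levels, with decorin at the top and Col1a1 at the bottom. The score was the mean over the transcript models of a gene, and the length was that of its longest coding sequence. Models could differ widely, for Reln from 8.29 to 10.21 in wild-type total RNA. The place of genes with several unlike models is therefore uncertain. The mean total RNA level over the 6 mice, as a log2 score per kilobase, was 12.28 for Dcn, 9.88 for Ecm1, 9.29 for Lrat and 8.25 for Hgf. It was 6.64 for Acta2, 6.52 for Col3a1, 6.30 for Reln, 6.28 for Des, 5.68 for Col1a2 and 4.49 for Col1a1. The ranges over mice of Ecm1 and Lrat overlapped, as did those of each neighbour pair from Acta2 down to Col1a2. Dcn above Ecm1, Lrat above Hgf, Hgf above Acta2 and Col1a2 above Col1a1 were without overlap in all 6 mice. In footprints per kilobase the same genes held the first 4 places, with 12.21 for Dcn, 10.93 for Ecm1, 9.14 for Lrat and 6.97 for Hgf. Acta2 followed at 6.94, with a range over mice that overlapped that of Hgf. Col1a1 was again last at 4.67, with a range that overlapped that of Col1a2 at 5.24.

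In total RNA the fibrillar collagens were higher in Maf1 KO than in wild-type liver, Col1a1 by the largest margin, but no gene of the 10 passed the test over all genes. Col1a1 had scores of 7.36, 7.01 and 7.04 in KO1, KO2 and KO4, against 6.21, 6.19 and 5.87 in WT1, WT2 and WT3. All 3 KO mice lay above all 3 wild-type mice, with means of 7.14 ± 0.19 in KO and 6.09 ± 0.19 in wild-type liver (SD, n = 3 each). These are low scores, at percentiles 5.8 to 7.1 of all genes in wild-type and 15.2 to 18.0 in KO total RNA. The lowest transcript score of a total RNA library was 4.76 to 5.08. The Col1a1 difference was 1.05 on the log2 scale (SE 0.32, 95% confidence interval 0.42 to 1.68), or 2.07-fold, and ranked 28 from the highest of 11587 genes. Its adjusted p was 0.208 in limma over all genes, and 0.195 with libraries centred, where the difference was 1.03 (95% interval 0.62 to 1.44).

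Col1a2, the partner chain of COL1A1, had total RNA scores of 8.22, 7.76 and 7.88 in KO mice, against 7.51, 7.52 and 7.42 in wild-type mice. Here too the genotypes did not overlap, and the difference was 0.47 (SE 0.30, limma adjusted p = 1). For Col3a1 the scores were 9.03, 8.83 and 8.73 in KO mice, against 8.54, 8.43 and 8.39 in wild-type mice. The genotypes were again apart, by 0.41 (SE 0.28, limma adjusted p = 1). After centring, the differences were 0.45 for Col1a2 and 0.39 for Col3a1, the genotypes still did not overlap, and the limma adjusted p was 0.491 and 0.532.

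For the stellate cell markers Des, Lrat and Reln the total RNA difference was between 0.13 and 0.46, and none passed the test. Des had total RNA scores of 7.16, 6.95 and 6.71 in KO mice, against 6.65, 6.46 and 6.70 in wild-type mice, a difference of 0.34 (SE 0.32) in which KO4 lay just above WT3 and the genotypes overlapped once libraries were centred. Lrat, the vitamin A esterifying enzyme, had 9.39, 8.83 and 8.75 in KO mice, against 8.25, 8.95 and 8.39 in wild-type mice, a difference of 0.46 (SE 0.28). WT2 lay within the KO range on the deposited scale, whereas after centring the genotypes of Lrat narrowly did not overlap, with KO4 at -0.075 and WT2 at -0.084. For Reln the scores were 10.21, 9.65 and 9.35 in KO mice, against 9.68, 9.77 and 9.37 in wild-type mice, a difference of 0.13 (SE 0.27) with overlapping genotypes.

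Among the secreted products, Dcn had total RNA scores of 12.59, 12.49 and 12.18 in KO mice, against 12.22, 12.49 and 12.22 in wild-type mice. The difference of 0.11 (95% interval -0.38 to 0.59) left the abundant decorin mRNA with overlapping genotypes. Ecm1 had 11.04, 10.94 and 10.35 in KO mice, against 10.17, 11.02 and 10.23 in wild-type mice, a difference of 0.30 (SE 0.26). WT2 was as high as the KO mice for this matrix protein, so the genotypes overlapped. Hgf had 9.64, 9.44 and 9.39 in KO mice, against 9.10, 9.43 and 9.27 in wild-type mice, a difference of 0.22 (SE 0.27) with WT2 inside the KO range. Acta2, the myofibroblast actin, was the exception in direction, with 6.96, 6.53 and 6.62 in KO mice, against 6.55, 7.23 and 7.001 in wild-type mice. Its difference was -0.22 (SE 0.32), the genotypes overlapped, and the value is uncertain because of the sequence it shares with other actins, of which Actb had a mean total RNA score of 15.42 in KO and 15.34 in wild-type liver.

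**Figure D1:**
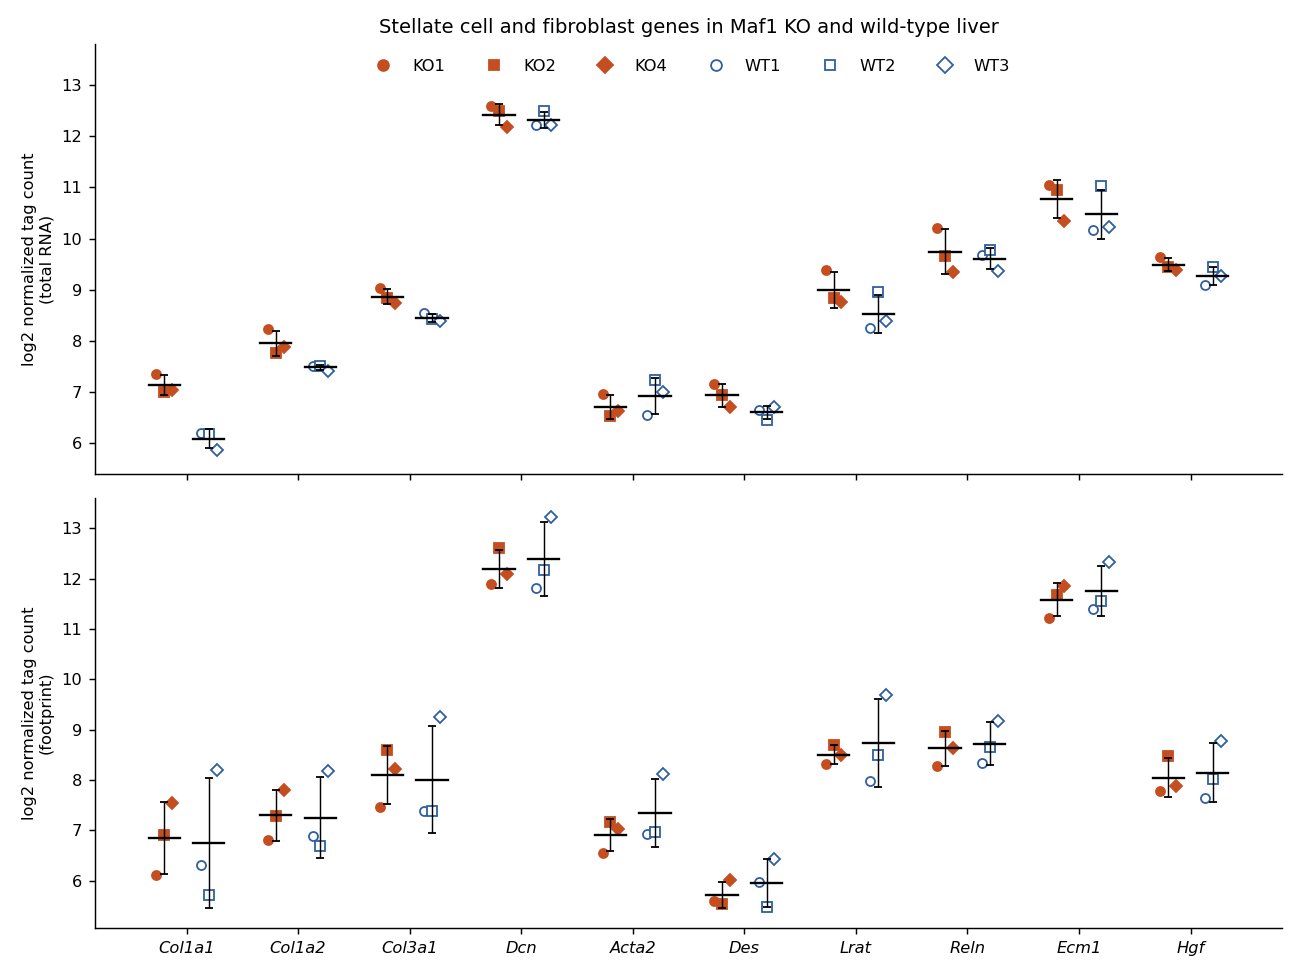
Scores (log2 normalized tag count) of the 10 genes in each mouse, total RNA above and footprints below, with Maf1 KO mice as filled and wild-type mice as open symbols, bars for the mean and whiskers for the SD of 3 mice. In total RNA the 3 KO mice sit above the 3 wild-type mice for Col1a1, Col1a2, Col3a1 and, narrowly, Des. In footprints WT3, whose library has the highest median, is the highest mouse for each of the 10 genes on this scale, but not for all of them after centring.

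Over the 10 genes, the total RNA difference was above 0 in 9, with a median of 0.32, beside 50.4% and a median of 0.00 over all genes. With libraries centred it was above 0 in 9, with a median of 0.30, beside 46.6% and -0.02. By limma 0 of 10 passed, with 0.276% of all genes called. At an unadjusted p under 0.05 there was 1 of 10 (Col1a1), beside 3.61% of all genes, and with libraries centred 4 of 10 (Col1a1, Col1a2, Col3a1 and Lrat), beside 8.48%. The genotypes did not overlap, with KO above, in 4 of 10 on the deposited scale (Col1a1, Col1a2, Col3a1 and Des), where the share over all genes was 4.07%, and in 4 of 10 after centring (Lrat in place of Des), where it was 6.92%. The genes were picked with earlier results of these data known, so these counts describe them only. Each gene kept its total RNA direction with any 1 mouse left out, except Reln and, with libraries centred, Dcn. Col1a1 stayed between 0.94 and 1.11.

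Of markers of Kupffer cells, the resident macrophages of the liver, 1 of 15 passed limma in total RNA on the deposited scale and 0 with libraries centred. That gene was the scavenger receptor Marco, at 2.21 (limma adjusted p = 4e-11, and 0.195 with libraries centred). The difference was above 0 in 15 of 15 (median 0.60), beside 50.4% of all genes, and KO lay above wild-type without overlap in 11 of 15, beside 4.07%. Their summed centred total RNA score was 5.86 to 6.30 in KO and 5.38 to 5.63 in wild-type liver. Sinusoidal endothelial markers were above 0 in 11 of 12 (median 0.17), and hepatocyte markers in 8 of 12 (median 0.11). Markers of cholangiocytes, which line the bile ducts, were above 0 in 4 of 4 measured (median 0.34), and red blood cell genes were below 0 in 3 of 3 (median -0.36). Of 3 measured adipocyte markers 1 was above 0, at 0.15. Cfd (adipsin) was lower at -1.54 (limma adjusted p = 0.00178, and 0.463 with libraries centred) and Cidec stood at -1.04. In these 2 KO lay below wild-type without overlap, beside 165 of all 11587 genes. The part of such shifts in the collagen differences was not tested.

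In footprints the genotypes overlapped for all 3 fibrillar collagens, and no difference passed the test. Col1a1 had footprint scores of 6.11, 6.90 and 7.54 in KO1, KO2 and KO4, against 6.32, 5.72 and 8.19 in WT1, WT2 and WT3, a difference of 0.11 (95% interval -0.60 to 0.81). The spread between wild-type mice (SD 1.29, n = 3) was larger than the difference, and WT3 stood above every KO mouse. Col1a2 had 6.81, 7.28 and 7.81 in KO mice, against 6.88, 6.70 and 8.19 in wild-type mice, a difference of 0.04 (SE 0.35). Col3a1 had 7.47, 8.60 and 8.22 in KO mice, against 7.39, 7.39 and 9.25 in wild-type mice, a difference of 0.09 (SE 0.35). In both, on this scale, KO4 or KO2 lay well above WT1 and WT2, and WT3 lay above all.

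Footprints of the other 7 genes were also highest in WT3 on the deposited scale, with differences from -0.43 for Acta2 to -0.10 for Reln and Hgf. The WT3 library had the highest footprint median. After centring, WT3 was not the highest mouse for Col1a2, Des, Reln and Hgf. Dcn had 11.89, 12.61 and 12.09 in KO mice, against 11.81, 12.17 and 13.22 in wild-type mice. Lrat had 8.32, 8.70 and 8.49 in KO mice, against 7.99, 8.51 and 9.70 in wild-type mice. For both the highest mouse was WT3 and the lowest WT1. Over the 10 genes the footprint difference was above 0 in 3 (the fibrillar collagens), with a median of -0.14, beside 21.7% and -0.18 over all genes. With libraries centred it was above 0 in 6, with a median of 0.05, beside 51.2% and 0.01. By limma 0 of 10 passed, with 0.0863% of all genes called, and 0 of 10 had an unadjusted p under 0.05, on either scale. In either direction 0 of 10 were without overlap, where the share over all genes was 5.7%.

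WT3 was compared with the other 2 wild-type mice, a comparison made after its values were seen. With libraries centred, its footprint score exceeded their mean by 1.57 for Col1a1, 1.26 for Col3a1, 0.85 for Lrat, 0.79 for Col1a2, 0.63 for Dcn and 0.57 for Acta2. The excess of Col1a1 was larger than that of 99.1% of all genes and the excess of Col3a1 larger than that of 98.3%. For Hgf, Ecm1, Des and Reln it was 0.35, 0.25, 0.11 and 0.07. All 10 were above 0, beside 52.5% of all genes. In total RNA the same excess was -0.13 for Col1a1, 0.11 for Col3a1 and 0.10 for Col1a2, so the high collagen values of WT3 were in its footprint library and not in its total RNA library. The footprints of WT3 also held more of exocrine pancreas genes, 2 of 11 listed being measured (Cela1 and Amy2a5), with a summed centred score of 5.49, against 1.15 and 2.15 in WT1 and WT2 and 1.19 to 2.72 in KO mice. In total RNA the same sum was -0.21 in WT3, against 0.07 and -0.06 in WT1 and WT2 and -1.02 to 0.40 in KO mice. The excess of pancreas genes in WT3 was thus also in its footprint library and not in its total RNA library. Whether it has a part in the collagen values was not tested. Without WT3 the footprint difference was 0.83 for Col1a1, 0.51 for Col1a2 and 0.70 for Col3a1, none of which passed the limma test.

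Translation efficiency, which is what remains of a footprint score once the mouse's own total RNA score is subtracted, was lower in KO than in wild-type liver for all 10 genes on the deposited scale, and no gene of the 10 passed the test. Col1a1 had -1.24, -0.11 and 0.49 in KO mice, against 0.11, -0.46 and 2.32 in wild-type mice, a difference of -0.94 (95% interval -2.23 to 0.34, limma adjusted p = 1). Lrat had -1.07, -0.14 and -0.26 in KO mice, against -0.26, -0.45 and 1.31 in wild-type mice, a difference of -0.69 (SE 0.62). In both the WT3 value set the wild-type mean apart, and the other 5 mice overlapped. The remaining genes lay between -0.59 for Des and -0.20 for Acta2. For Des this was more than the SD of either genotype (0.47 in KO and 0.36 in wild-type liver, n = 3 each), but the genotypes overlapped. The median of the 10 was -0.38, beside -0.19 over all genes, of which 19.8% were above 0. With libraries centred, 9 of 10 were below 0 with a median of -0.17, Acta2 being at 0.005, beside a median of 0.02 over all genes. By limma 0 of 10 passed, with 0.0173% of all genes called, and 0 of 10 had an unadjusted p under 0.05 on either scale. Genotypes were without overlap in 0 of 10 on the deposited scale, beside 2.18% of all genes, and after centring in Lrat, with KO below, beside 3.5%. Without WT3 the difference was -0.11 for Col1a1 and 0.32 for Col3a1.

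**Figure D2:**
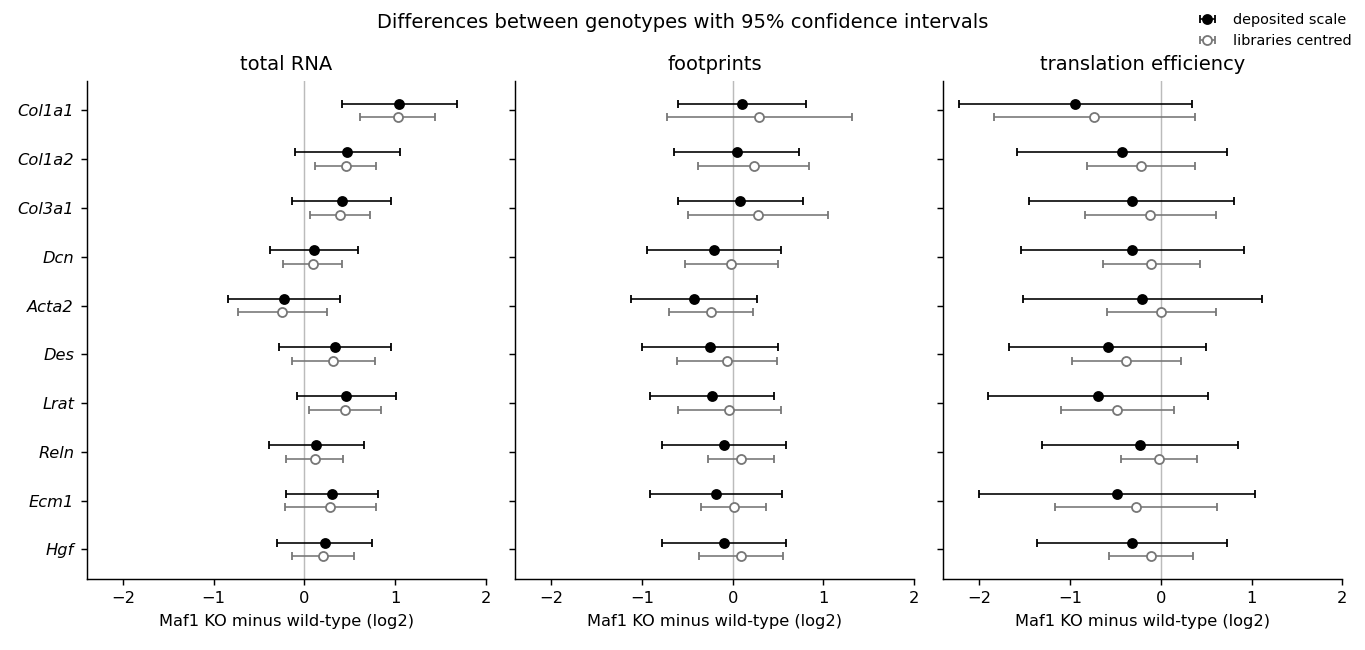
Maf1 KO minus wild-type differences (log2) of the 10 genes in total RNA, footprints and translation efficiency, with 95% confidence intervals from limma, on the deposited scale (filled) and with each library centred on its median gene (open). For total RNA the interval of Col1a1 runs from 0.42 to 1.68 on the deposited scale and lies above 0 on both scales, those of Col1a2, Col3a1 and Lrat lie above 0 only after centring, and every interval for footprints and translation efficiency includes 0.

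Apart from genotype, 9 of the 10 genes carried more footprints per mRNA than the median gene of the liver. Translation efficiency was centred on the median gene of each mouse and the mean over both genotypes was set against 0. Ecm1 was highest, with 2.20, 1.78 and 2.64 in KO mice and 2.72, 1.97 and 2.74 in wild-type mice. Its mean of 2.34 is 5.06-fold above the median gene, a value higher than that of 99.7% of all genes. Acta2 had 1.60, 1.68 and 1.53 in KO mice and 1.87, 1.17 and 1.75 in wild-type mice, a mean of 1.60, which carries the same doubt about shared actin sequence. For Col1a1 the values were 0.77, 0.93 and 1.62 in KO mice and 1.60, 0.97 and 2.96 in wild-type mice, a mean of 1.48 that was above 0 in all 6 mice and 1.20 without WT3.

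Dcn followed with a mean of 1.22 (1.03 to 1.63 over the 6 mice), Lrat with 1.15 (0.86 to 1.94), Col1a2 with 0.85 (0.57 to 1.40) and Col3a1 with 0.69 (0.34 to 1.49). The fibrillar collagens were thus above the median gene in every mouse, in the order Col1a1, Col1a2 and Col3a1 of their means, with ranges that overlapped. Des at 0.36 (-0.37 to 0.82) and Reln at 0.30 (0.08 to 0.44) were closer to the median gene, and Hgf at 0.01 (-0.38 to 0.155) was at it. By limma 9 of 10 passed as higher, where 37.3% of all genes were called higher, and Hgf did not (adjusted p = 0.926). The adjusted p was 1.58e-05 for Acta2, 2.55e-05 for Dcn, 0.000486 for Col1a1, 0.0173 for Reln and 0.033 for Des in limma. With the transcript of highest score in place of the mean over transcripts, Col3a1 and Reln lost the call and Hgf gained it. Des lost the call with KO1, KO4, WT1 or WT2 left out, and Reln with KO2 left out. In KO mice alone 7 of 10 passed and in wild-type mice alone 8 of 10. Translation efficiency also varied with mRNA level, with medians of -0.24, -0.17, -0.03 and 0.41 from the lowest to the highest quartile of genes by total RNA score. Acta2, Col1a1 and Des lay in the lowest quartile and Ecm1 and Dcn in the highest. Efficiency above the median gene was also called for 10 of 12 hepatocyte markers, 11 of 15 Kupffer cell markers and 22 of 28 other matrix proteins. It was called for 11 of 21 other stellate cell genes and 5 of 12 other collagen chains.

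**Figure D3:**
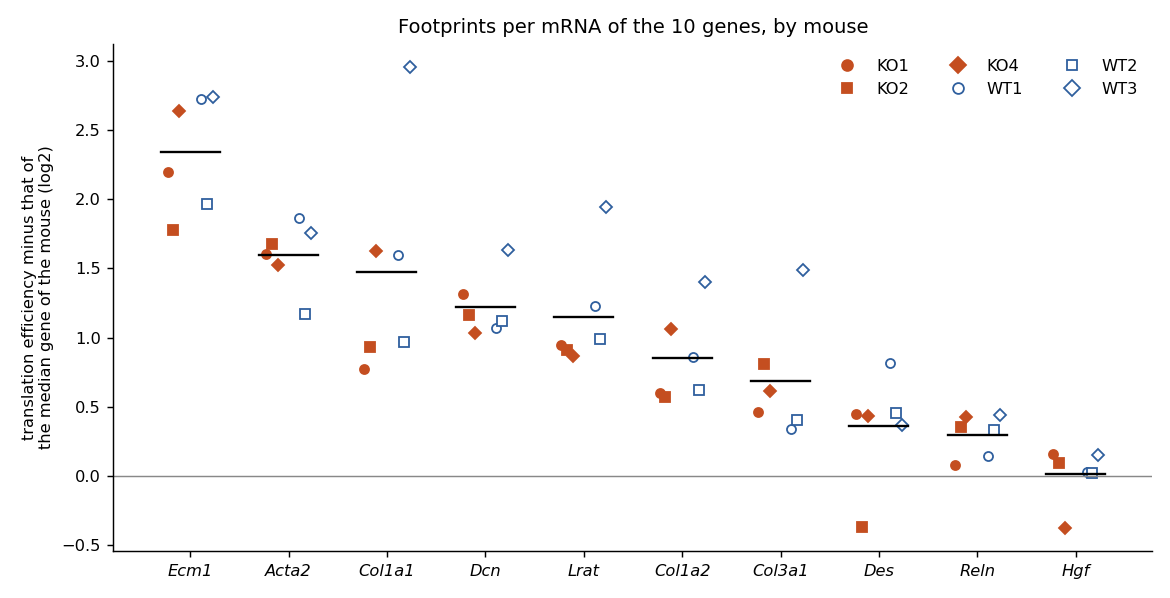
Translation efficiency minus that of the median gene of the same mouse (log2) for the 10 genes, by mouse, with Maf1 KO mice as filled symbols left of wild-type mice as open symbols, and bars for the mean of the 6 mice. Ecm1 stands highest at a mean of 2.34, the WT3 diamond is well above the other mice for Col1a1, Col3a1 and Lrat, and Hgf lies at the median gene.

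Related genes were taken from lists of known members of each group and followed on the same scales. Of 12 measured other collagen chains, 12 had a total RNA difference above 0 (median 0.36), beside 50.4% of all genes. KO lay above wild-type without overlap in 5 of 12, beside 4.07% of all genes, and in 6 of 12 with libraries centred, beside 6.92%. Col15a1, a basement membrane collagen, had the largest, with 6.87, 6.52 and 6.58 in KO mice, against 6.25, 5.60 and 5.44 in wild-type mice, a difference of 0.89 (SE 0.33, limma adjusted p = 0.597). Its mean scores were below those of Col1a1 in both genotypes. Col6a2 and Col6a1, chains of the beaded filament collagen VI, differed by 0.50 and 0.48. Of 28 other matrix proteins, 24 were above 0 (median 0.21), with Nid2 of the basement membrane at 0.67, Postn (periostin) at 0.60 and Efemp2 (fibulin-4) at 0.59. Of 11 contractile and cytoskeletal genes, 9 were above 0 (median 0.30), with the tropomyosin gene Tpm1 at 0.43 and the actin crosslinker Flna at 0.27.

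Lists of the collagen-making machinery, stellate cell identity, signalling, retinoid use, and matrix proteases and inhibitors had medians of 0.06 to 0.16 in total RNA. Of 16 genes for collagen folding and crosslinking, 10 were above 0 in total RNA (median 0.06). Of 21 other stellate cell genes, 12 were above 0 and 9 below (median 0.06, lowest -0.40). Those above 0 included Angptl6 at 0.42, the neurotrophin receptor gene Ngfr at 0.42 and the transcription factor gene Hand2 at 0.42. The summed centred total RNA score of the 21 genes was 4.74 to 4.99 in KO and 4.94 to 5.11 in wild-type liver. Of 21 genes of TGF-beta and PDGF signalling, 13 were above 0 and 8 below (median 0.09, lowest -0.43). Those above 0 included Ctgf, a TGF-beta target, at 0.50, Ltbp3 at 0.44 and Eng, a co-receptor, at 0.28. Of 8 genes for the receptor and activation of HGF 5 were above 0, and of 8 matrix proteases and inhibitors 5. Of 15 genes for retinoid storage and use 11 were above 0 (lowest -0.30, highest 0.86), and Dgat1 stood at -0.21. No gene of the lists named so far for matrix, stellate cells and signalling passed limma in total RNA. At an unadjusted p under 0.05 on the deposited scale there was 1 of 12 collagen chains (Col15a1). Other matrix genes gave 3 of 28 (Prelp, Postn and Nid2) and retinoid genes 2 of 15 (Cyp26b1 and Lpl), beside 3.61% of all genes. On that scale there were 0 of 16 collagen folding genes, 0 of 21 other stellate cell genes and 0 of 11 contractile genes. The lists of TGF-beta and PDGF signalling, proteases and inhibitors, and HGF gave 0 of 21, 0 of 8 and 0 of 8. With libraries centred there were 3 of 12 collagen chains (Col6a1, Col6a2 and Col15a1), 6 of 28 other matrix genes (Bgn, Agrn, Efemp2, Postn, Sparc and Nid2) and 2 of 15 retinoid genes (Cyp26b1 and Rdh11), beside 8.48%. Also under 0.05 on that scale were 2 of 21 other stellate cell genes (Hand2 and Angptl6, 9.52%) and 1 of 11 contractile genes (Tpm1, 9.09%). For TGF-beta and PDGF signalling it was 1 of 21 (Ctgf, 4.76%), and for reelin receptors 1 of 1 (Itga3). Collagen folding, proteases and inhibitors, and HGF genes gave 0 of 16, 0 of 8 and 0 of 8, beside the same 8.48%. Of 4 listed reelin receptors only Itga3 was measured, at 0.60, and of 12 genes of portal fibroblasts and mesothelium 2 were measured, among them Gas6 at 0.27.

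In footprints the counts of the matrix lists depended on the scale. Of 12 other collagen chains 4 were above 0 on the deposited scale (median -0.14) and 10 after centring (median 0.04). Of 28 other matrix proteins the counts were 5 (median -0.11) and 21 (median 0.08). Of the 21 other stellate cell genes, 0 were above 0 on the deposited scale (median -0.30) and 5 after centring (median -0.11), beside 51.2% of all genes. Ctgf had footprint scores of 7.66, 8.10 and 8.07 in KO mice, against 7.76, 7.34 and 10.67 in wild-type mice, a difference of -0.64 (SE 0.35). Its sign rested on WT3, since all 3 KO mice lay above WT2 and 2 of them also above WT1. No gene of these lists passed limma in footprints. At an unadjusted p under 0.05 there was only Cyp26b1 of the retinoid list on the deposited scale, beside 2.49% of all genes, and Cyp26b1 and Tgfb1 with libraries centred, beside 4.0%.

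**Figure D4:**
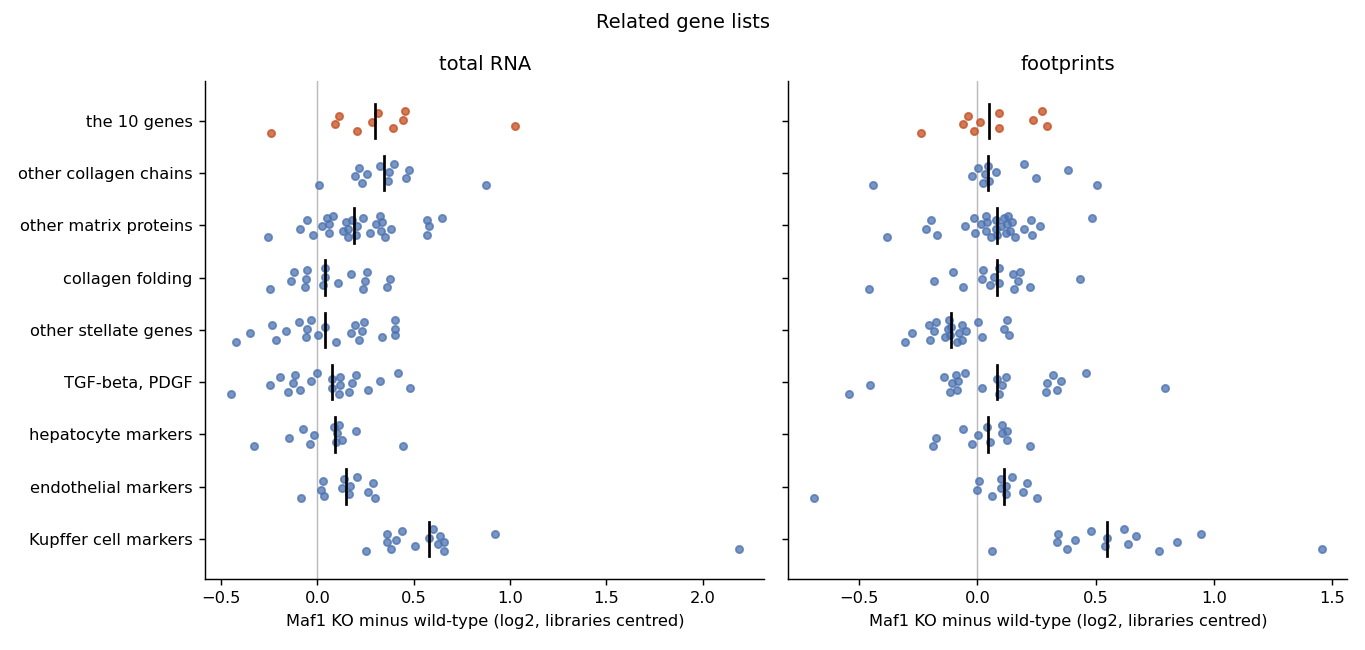
Maf1 KO minus wild-type differences (log2, each library centred on its median gene) of the genes of 9 lists in total RNA and footprints, 1 point per gene and a bar at the median of the list. In total RNA the bars of the 10 genes, other collagen chains and Kupffer cell markers lie at 0.30, 0.34 and 0.58, and in footprints at 0.05, 0.04 and 0.55.

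The genes most like Col1a1 across the 6 mice were sought among 5793 genes with a total RNA score above the median gene, by Pearson's r of library-centred total RNA scores. They were Pgd (r = 0.985), Me1 (r = 0.983), Gstm3 (r = 0.958), Vwa5a (r = 0.956) and Zc3hav1 (r = 0.955), and Col1a2 and Col3a1 were not among the genes ranked, their mean scores being below that of the median gene. Measured in the same way, Col1a2 had r = 0.968 with Col1a1, above that of Gstm3, Vwa5a and Zc3hav1, and Col3a1 had r = 0.887. Since Col1a1 separates the genotypes, such a value holds the genotype difference as well as the variation within a genotype, and it is a description of 6 libraries. Pgd and Me1 encode enzymes that produce NADPH, and their centred total RNA differences were 0.51 and 1.06.

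Most of the genes were represented by more than 1 transcript model, 30 in all, which could move a mean. Col1a1, Acta2, Des and Lrat had 1 model each. The 3 models of Col1a2 differed from 0.31 to 0.57 in total RNA and from -0.13 to 0.31 in footprints, and the 2 of Col3a1 from 0.23 to 0.59 in total RNA. The 9 models of Reln ranged from -0.03 to 0.35 in total RNA, so that its direction depended on the model.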

How the data were processed

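Footprint and total RNA libraries of 3 Maf1 KO and 3 wild-type livers were analysed. Per the study's methods, lysates were mixed with extract of Drosophila S2 cells, tags found in both the fly (dm6) and mouse (mm9) genomes were removed, and the rest were aligned to coding sequences with up to 1 mismatch. For the aligner and for tags that match several genes, the sources used here give no detail. The deposited values are log2 scores, made from tag counts that the authors scaled to the total and by TMM of edgeR. The methods also describe a correction with a fly factor, and whether the deposited table holds it is not stated in the table. A fly factor, or its absence, shifts every gene of a library alike. Removal of tags shared with fly could lower conserved genes such as actins, which was not tested.

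Gene scores were means over transcripts, as in the study. Lowest transcript scores were 4.756 to 5.083 in total RNA and -2.651 to -1.3 in footprints, and depth is unknown. Total RNA, footprints and translation efficiency were each fitted over all 11587 genes with limma 3.58.1 in R 4.3.3 (lmFit, then eBayes with trend), genotype as the only term, two-sided, with Benjamini-Hochberg adjustment at 0.05. On the deposited scale the prior degrees of freedom were infinite, so that standard errors of genes more variable than others are too small. The fits were tested on simulated data. Named genes were the 10 members and, from each list, any gene past the threshold or otherwise up to 3 with the largest total RNA difference among those without overlap after centring. The members and lists were chosen with earlier results of these data known. Alternatives were centring, quantile normalization, a filter at the 0.25 quantile, the top transcript, other priors, a looser threshold of 0.1, a block for the replicate number, an interaction model and leaving out each mouse. Sequences came from NCBIM37 with GENCODE vM1.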

Additional observations from a re-analysis of the deposited data

Results flagged for a closer look

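Among the translation efficiencies against the median gene of each mouse, 2 values stood apart from the other 5 mice by more than Dixon's 95% limit for 6 values, a limit that chance passes in about 1 in 20 groups, and 10 genes were looked at. Lrat in WT3 was at 1.943, with 0.865 to 1.226 in the other mice, the gap being 0.665 of the range. Hgf in KO4 was at -0.376, with 0.021 to 0.155 in the other mice, the gap being 0.748 of the range.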

How the results depend on the processing

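No gene of the 10 passed the test of KO against wild-type in total RNA, footprints or translation efficiency under any alternative, and 9 of 10 carried more footprints than the median gene, 7 to 9 under every alternative but one. With deposited scores in place of centred ones, where 0 means equal scores of both libraries, 5 passed, of which 1 was higher (Ecm1 at 1.05) and 4 were lower (Col3a1, Des, Reln and Hgf), and Col1a2 was at -0.44, Col3a1 at -0.60, Dcn at -0.068, Des at -0.93, Hgf at -1.28, Lrat at -0.15 and Reln at -0.995. Hgf was at -0.044 in KO mice alone. Over all genes, limma called 32 in total RNA, 2 with libraries centred and 9 with the replicate block, 10, 0 and 292 in footprints, and for translation efficiency 2, 0 and 3. The cause was not tested. In the block, KO4 and WT3 share their number with no other mouse, so its genotype difference rested on KO1, KO2, WT1 and WT2. Most signs that changed were of differences that had not passed.

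Centring each library turned the footprint difference of Ecm1 to 0.01, Hgf to 0.092 and Reln to 0.092, and the efficiency difference of Acta2 to 0.005. Quantile normalization gave 0.025 for Dcn, 0.04 for Ecm1, 0.086 for Hgf and 0.10 for Reln in footprints, and 0.087 for Acta2 in efficiency. The top transcript gave -0.039 for Col1a2 in footprints and -0.028 for Reln in total RNA. The shared replicate numbers 1 and 2 name separate mice. For KO and wild-type mice of the same number, r of deviations was 0.234 and 0.27 in total RNA and -0.061 and 0.097 in footprints. For mice of different number it was -0.193 and -0.188 in total RNA and -0.076 and -0.346 in footprints. Whether the numbers mark a shared handling of the mice was not tested. The replicate block, in effect without KO4 and WT3, gave 0.26 for Dcn, 0.30 for Hgf, 0.26 for Lrat and 0.12 for Reln in footprints. In efficiency it gave 0.056 for Acta2, 0.197 for Col3a1, 0.075 for Dcn and 0.031 for Hgf, and it changed no call of the 10 genes.

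With each mouse left out in turn, on the deposited scale and, as chosen after seeing the data, with libraries centred, footprint differences ranged from -0.40 to 0.83 for Col1a1, -0.23 to 0.51 for Col1a2, -0.22 to 0.70 for Col3a1, -0.50 to 0.21 for Dcn, -0.49 to 0.10 for Des, -0.60 to 0.26 for Lrat, -0.29 to 0.15 for Reln, -0.36 to 0.10 for Ecm1 and -0.35 to 0.24 for Hgf. In efficiency they ranged from -0.72 to 0.068 for Col1a2, -0.68 to 0.32 for Col3a1, -0.56 to 0.14 for Dcn, -0.54 to 0.15 for Acta2, -0.46 to 0.18 for Reln and -0.56 to 0.059 for Hgf. In total RNA they ranged from -0.055 to 0.227 for Dcn and -0.11 to 0.33 for Reln, and Hgf against the median gene from -0.039 to 0.094. Leaving out KO1 and WT3 together was also chosen after seeing the data. It gave footprint differences of 0.14 for Acta2, 0.36 for Dcn, 0.044 for Des, 0.28 for Ecm1, 0.36 for Hgf, 0.35 for Lrat, 0.30 for Reln and 0.44 for Cela1, which had passed at -1.83. In total RNA it gave -0.019 for Dcn, -0.226 for Reln, -0.018 for Gas6 and -0.046 for Ltbp3. In efficiency it gave 0.46 for Acta2, 0.37 for Col1a1, 0.45 for Col1a2, 0.72 for Col3a1, 0.38 for Dcn, 0.24 for Ecm1, 0.21 for Hgf, 0.16 for Lrat and 0.53 for Reln, and -0.059 for Hgf against the median gene. The cause of these changes of sign was not tested.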
